A study of Homo sapiens with 96 samples.

Results

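Doxycycline was set against water in 16 RNA-seq samples of 6 derivative lines of K562, a human erythroleukemic cell line, out of 96 samples in the series. The samples were chosen by their labels alone, as every sample of a derivative line, and they form 8 pairs in which a doxycycline and a water sample share the line and the day. In 3 lines the labels give an overexpression, of AsiSI (4 and 13 days), Cas9 (2 days) or LINE (2 days). In the other 3 they give a knockdown by shRNA, of CSB (2 days), LIG3 (8 days) or MRE11A (5 and 8 days). All the samples are K562 cells that carry such a construct, made with lentiviral vectors as the methods describe it. Each combination of line, day and treatment is 1 library, the labels name neither the promoter nor the clone, and they do not say that doxycycline switches the construct on. Whether the targeted genes changed cannot be checked here, since the site list holds no expression values. The 6 pairs of the Cas9, LINE, CSB, LIG3 and MRE11A lines and the 2 AsiSI pairs are also given separately. Pairs of the same line share their cells, so p-values measure the spread between pairs and not between independently made lines.

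A-to-I editing is the deamination of adenosine to inosine in RNA by ADAR enzymes, which act on double-stranded RNA and tend to have U before and G after the edited base. Inosine is read as G in sequencing, so an edited site appears as an A-to-G mismatch, and its level is the fraction of reads that carry G. AsiSI is a restriction enzyme with rare recognition sites, Cas9 is the nuclease of CRISPR, and LINEs are retrotransposons. CSB, encoded by ERCC6, acts in transcription-coupled repair, LIG3 is a DNA ligase of single-strand break repair, and MRE11A, now MRE11, is the nuclease of the MRN complex at double-strand breaks. Doxycycline is an antibiotic that is also known to inhibit mitochondrial translation.

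A site counted as found in a sample when the list gave it a level above 0. Any of the 16 samples held 602 (14.7%) of the 4092 sites that have levels in the list, 362 with doxycycline and 393 with water. Most were seen once, as 410 sites were found in 1 of the 16 samples. Both treatments held 153 of the sites, whereas 209 were found with doxycycline only and 240 with water only. The 16 libraries had 18 to 42.1 M reads (M, 1000000) and yielded 30 to 129 sites each (median 62.5), against 76 to 633 sites (median 260) in the other 80 samples, 79 of which had a read total, at 27.4 to 46.3 M. Per M reads the 16 samples gave 1.38 to 3.30 sites (median 2.14), and those 79 samples gave 1.95 to 17 (median 6.80). Depth at single sites is unknown, so a site without a level may be unedited, unexpressed or not covered. A level may also be a false call. The paper reports that part of the listed sites it tested by Sanger sequencing showed no editing. It also states that calls from a single sample were too inaccurate to define editing sites particular to 1 sample.

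The 12 sites found in most of the 16 samples, with ties broken by the number of other samples that held the site, were all annotated, 6 lay in 3′ UTRs and 4 in introns, and they were found in 19 to 80 of the 80 other samples. Their reference sequences are shown because the levels discussed here rest on them. Each run covers 10 bases on either side of the edited A, read 5′ to 3′ on the edited strand from GRCh38, with the edited A in capitals.
PIP5K1C intron, chr19:3648327 on the minus strand: ttgaaaatctAgagtgagttg
PIP5K1C intron, chr19:3648325 on the minus strand: gaaaatctagAgtgagttggg
IQCB1 intron, chr3:121833205 on the minus strand: tgatggtagaActgggcttta
KPNB1 intron, chr17:47674140 on the plus strand: cagtgacattAgttgaaacaa
GNL3L 3′ UTR, chrX:54563297 on the plus strand: acctctacttAtgatggggct
FAM20B 3′ UTR, chr1:179073770 on the plus strand: ttctcctcttAgcactctcaa
AJUBA 3′ UTR, chr14:22972267 on the minus strand: cacctctcagAggggtcccgg
CD2AP 3′ UTR, chr6:47624723 on the plus strand: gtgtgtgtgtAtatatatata
SEC61A1 3′ UTR, chr3:128071406 on the plus strand: gcccacgcttAggaatgcttg
PPIA 3′ UTR, chr7:44802500 on the plus strand: tcttgagggaAgcatattggg
SSR4 exon, chrX:153795859 on the plus strand: aggctaaggcAaggtcctttc
LINC-PINT exon, chr7:130945478 on the minus strand: ccaaaaccttAggtctggttt
Of these 12 sites, 7 had T before the edited base, 8 had G after it and 5 had both. Among all 4092 listed sites 49.3% had T before and 44.3% had G after the edited base. The SSR4 site is listed as 5′ UTR, and GENCODE release 44 holds it as an exon outside a UTR. PPIA has many processed copies in the genome, so reads at its site are less certain to come from the gene.

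The number of sites found did not move one way with doxycycline. It was higher with doxycycline in 2 pairs, higher with water in 5 and equal in 1. The Cas9 line gave 80 sites with doxycycline and 30 with water, whereas the LINE line gave 36 with doxycycline and 78 with water. In the knockdown lines water samples had more sites throughout, with 67 against 74 in CSB, 78 against 109 in LIG3, 35 against 58 in MRE11A at 5 days and 46 against 50 at 8 days, doxycycline first. The AsiSI line gave 58 sites with either treatment at 4 days, and 129 with doxycycline against 101 with water at 13 days. The largest differences, in Cas9 and LINE, pointed in opposite directions.

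Over the 8 pairs doxycycline samples held 66.1 ± 30.8 sites (SD, n = 8) and water samples 69.8 ± 26.3. The mean difference, doxycycline minus water, was -3.63 ± 30.5 sites (SD, 8 pairs), with an exact paired permutation p = 0.75, two-sided, and a 95% interval of -27 to 24.7 sites. With the 8 pairs this exact permutation test can reach p = 0.00781. In the 6 pairs outside AsiSI the mean difference was -9.5 ± 32.5 sites (exact permutation p = 0.5, smallest possible 0.0313). In the 2 AsiSI pairs it was 14 ± 19.8 sites, where no exact test can go below p = 0.5. Single pairs moved these values. Over the 8 pairs the mean difference was 1.86 sites without LINE, 0.286 without LIG3 and -11.3 without Cas9. Over the 6 pairs it was -3 sites without LINE and -21.4 without Cas9, with all 5 remaining pairs lower with doxycycline (exact permutation p = 0.0625, the smallest possible with 5 pairs). These 5 pairs also had fewer reads with doxycycline, and for sites per M reads the exact permutation p without Cas9 was 0.125.

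**Figure D1:**
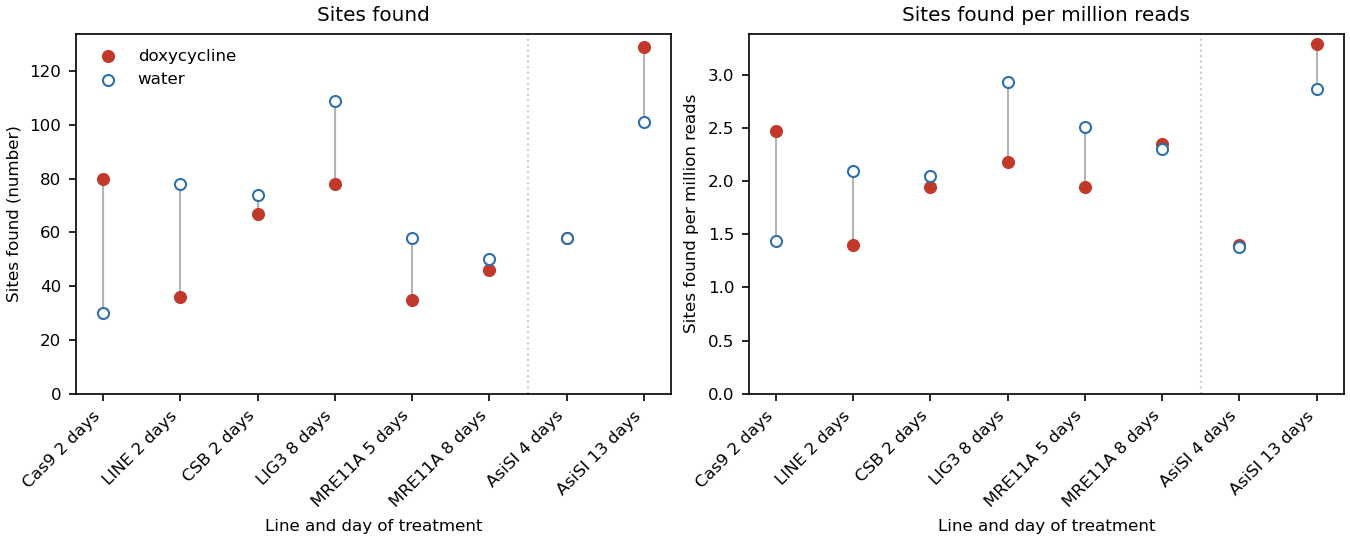
Sites found in each sample (left, number) and per M reads (right), by line and day, with doxycycline as filled red points, water as open blue points, a grey line joining the samples of a pair and a dotted line before the AsiSI pairs. The Cas9 pair (80 against 30 sites) and the LINE pair (36 against 78) differ most and in opposite directions.

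The difference in sites went along with the difference in reads. Cas9, the pair with the largest gain of sites, had 32.3 M reads with doxycycline and 20.8 M with water, a ratio of 1.55. LINE, the pair with the largest loss, had 25.7 M reads with doxycycline and 37.2 M with water, a ratio of 0.692. In the other pairs the ratio of reads lay between the 0.778 of MRE11A at 5 days and the 1.11 of AsiSI at 13 days. Over the 8 pairs the log2 ratio of sites and the log2 ratio of reads had Pearson's r = 0.977 (exact permutation p = 0.000595, adjusted over 2 measures 0.00119) and Spearman's rho = 0.905 (exact permutation p = 0.00456). Without Cas9 and LINE, the pairs farthest from the median ratio of reads, r was 0.869 over 6 pairs (exact permutation p = 0.0333) and rho was 0.771 (exact permutation p = 0.103). Over the 6 pairs outside AsiSI r was 0.976 (exact permutation p = 0.0167).

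**Figure D2:**
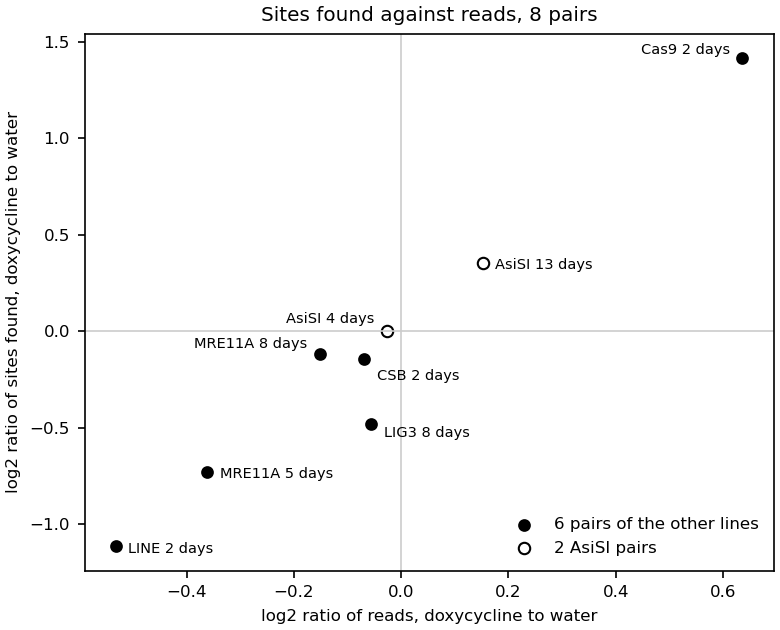
Log2 ratio of sites found against log2 ratio of reads, both doxycycline to water, with 1 point per pair, filled for the 6 pairs of the other lines and open for the AsiSI pairs. The pairs lie along a rising line from LINE to Cas9 with r = 0.977 over 8 pairs.

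Division by reads did not bring the pairs into 1 direction. Sites per M reads were 2.48 with doxycycline and 1.44 with water in Cas9, 1.40 and 2.1 in LINE, 1.95 and 2.05 in CSB and 2.18 and 2.93 in LIG3. In MRE11A they were 1.95 and 2.51 at 5 days and 2.35 and 2.30 at 8 days, and in AsiSI 1.40 and 1.38 at 4 days and 3.30 and 2.87 at 13 days. The value was higher with doxycycline in 4 pairs and with water in 4. The ratio per M reads was still highest in Cas9 (1.72) and lowest in LINE (0.667), the pairs with the highest and the lowest ratio of reads. Whether division by reads removes the difference in depth was not tested. The mean ratio of doxycycline to water was 0.965 over the 8 pairs, with a 95% interval of 0.759 to 1.26 (exact paired permutation p = 0.727). Without LINE or without LIG3 the mean log2 ratio turned from -0.05 to 0.024 and 0.0017. The ratio was 0.929 in the 6 pairs (exact permutation p = 0.594) and 1.08 in the 2 AsiSI pairs. The effect in the AsiSI pairs, on the log2 scale, differed from that in the 6 other pairs by 0.22 (exact permutation p = 0.571 over 28 splits).

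Sites differed between the samples of a pair more than they were shared. The 8 pairs had 9 to 30 sites in both samples. The sites found in both were 11 in Cas9, which is 13.8% of the doxycycline list and 36.7% of the water list, and 30 in AsiSI at 13 days, which is 23.3% and 29.7%. Across the pairs these shares ran from 13.8% to 38.9% of a list, with a median of 25.8%. The same line and treatment on another day shared 15.2% to 36.2% (median 18.6%, 4 comparisons in AsiSI and MRE11A). The libraries of the same DMSO condition in ordinary K562, at 2 and at 6 hours, shared 23.9% to 34.9%. Those DMSO lists held 173 to 287 sites, more than any derivative-line sample, so their shares are not directly comparable. Samples of different lines under the same treatment shared 2.97% to 40% (median 16.7%). The overlap between doxycycline and water thus had a higher median than that between lines under the same treatment (25.8% against 16.7%), inside the wider range of the latter. Sites shared within a pair were widely held, in a median of 26.5 to 46.5 of the 80 other samples by pair, whereas sites found with doxycycline only were held by a median of 10 to 20 of them and sites found with water only by 4 to 24.

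Few sites recurred with 1 treatment only. AJUBA, a LIM domain scaffold protein, had a 3′ UTR site at chr14:22972905 on the minus strand that was found in 4 water samples and in no doxycycline sample. Its levels were 0.8 in LINE, 0.889 in CSB, 0.764 in LIG3 and 0.778 in MRE11A at 5 days, and 27 of the 80 other samples held it at a median of 0.8. Its sequence is shown because no other site met the rule of at least 4 pairs.
AJUBA 3′ UTR, chr14:22972905 on the minus strand: ctagaaccaaAtcaaagtgta
An overlapping readthrough gene covers both AJUBA sites. Further sites were found with water only in 3 pairs, and those named here were chosen after their values were seen. They lay in CHD1, a chromatin remodeller, in PSMA2, a proteasome subunit, and in ESPL1, the protease separase. With doxycycline only, 1 site in the 3′ UTR of SMU1, a spliceosome protein, was found in 3 pairs, at 0.143 in Cas9, 0.5 in CSB and 0.667 in MRE11A at 8 days. Sites limited to 1 treatment in at least 2 pairs numbered 13 with doxycycline and 26 with water.

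Editing levels were compared next at the sites found in both samples of a pair. Their means were higher with doxycycline in 5 pairs and with water in 3. The mean difference, doxycycline minus water, was 0.069 in Cas9 (11 sites), 0.034 in LINE (14), -0.012 in CSB (14), 0.0062 in LIG3 (27), 0.057 in MRE11A at 5 days (9) and -0.048 at 8 days (13). In AsiSI it was 0.0072 at 4 days (15 sites) and -0.169 at 13 days (30 sites). The AsiSI pair of 13 days lay apart from the other 7. Of its 30 shared sites 5 were higher with doxycycline, 23 were higher with water and 2 were within 0.001 of each other. The mean level at those sites was 0.257 with doxycycline and 0.425 with water.

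Over the 8 pairs the mean difference at shared sites was -0.0069 ± 0.075 (SD), with an exact paired permutation p = 0.852 and a 95% interval of -0.076 to 0.045. In the 6 pairs it was 0.018 ± 0.044 (exact permutation p = 0.375, interval -0.048 to 0.069). In the 2 AsiSI pairs it was -0.081 ± 0.124, where no exact test can go below p = 0.5. Without the AsiSI pair of 13 days the difference turned to 0.016 (exact permutation p = 0.328, 7 pairs). The AsiSI pairs and the 6 others differed by -0.098 (exact permutation p = 0.286 over 28 splits). The median level over all sites found in a sample was 0.375 to 0.5 with doxycycline and 0.353 to 0.5 with water, with a mean difference of 0.0035 ± 0.056 (exact paired permutation p = 0.875, interval -0.042 to 0.056). The 4 main comparisons over 8 pairs had adjusted p = 0.875 throughout by Benjamini-Hochberg over these exact permutation tests.

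**Figure D3:**
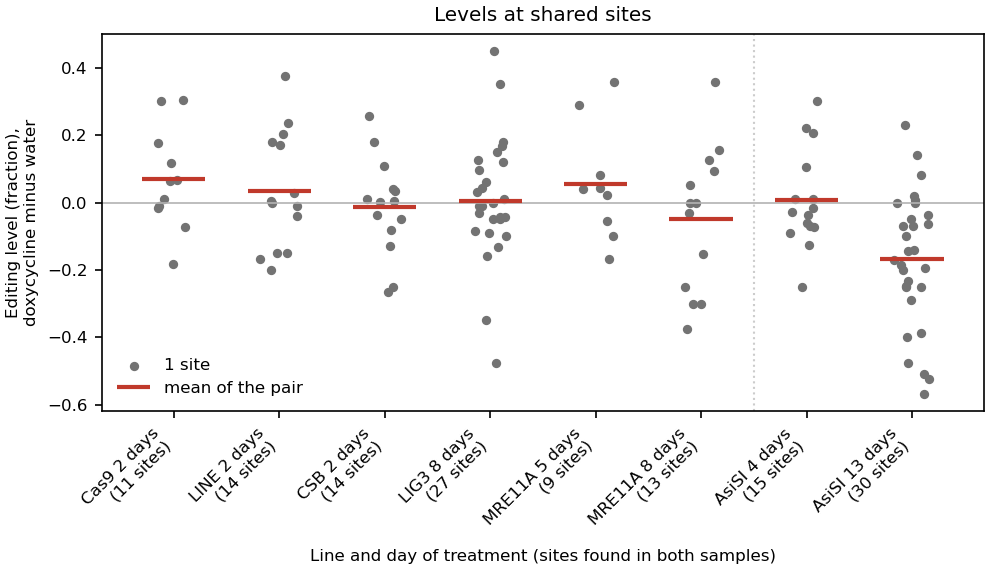
Difference in editing level, doxycycline minus water, at each site found in both samples of a pair (grey points, fraction), with the mean of the pair as a red bar. The means of 7 pairs lie between -0.048 and 0.069, and that of AsiSI at 13 days is -0.169.

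The water library of AsiSI at 13 days had high levels against the rest of the series. For each sample the level of every found site held by at least 5 of the 80 other samples was set against its median in those samples, a measure added after the data were seen. The median deviation was 0.213 in this library (58 sites, 93.1% above), 0.129 in AsiSI water at 4 days, 0.0995 in AsiSI doxycycline at 4 days and 0.0711 at 13 days. The 12 samples of the other lines had -0.050 to 0.084, and the 80 other samples, each against the rest, had -0.1 to 0.114. None of the 80 reached the value of this water library. At the 29 shared sites of the 13-day pair that at least 5 of the other samples held, 26 levels with water and 19 with doxycycline were above the median of the 80. The difference between doxycycline and water in this measure was -0.021 ± 0.064 over the 8 pairs (exact paired permutation p = 0.438) and 0.000295 ± 0.047 over the 6 (exact permutation p = 0.969).

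Site by site, the 12 sites found in both samples of at least 3 pairs were tested with limma, with the pair as a block. None passed an adjusted p of 0.05 (0% of the 12 tested), none had an unadjusted p under 0.05, and an exact paired permutation test per site called none. With 3 pairs that exact test cannot go below p = 0.25 and with 4 pairs below 0.125. Before adjustment only the sites of PIP5K1C at chr19:3648327, GNL3L and IQCB1 could have fallen under 0.05. After adjustment over the 12 sites none could, so the exact test was unable to call any site. Levels were lower with doxycycline at 9 of the 12 sites, with a median difference of -0.041, and at 5 of 8 sites without the AsiSI pair of 13 days, with a median of -0.015.

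PIP5K1C, a kinase that makes phosphatidylinositol bisphosphate, was the gene of the only site found in all 16 samples, chr19:3648327. Its level was 0.0867 to 0.276 with doxycycline (median 0.167) and 0.0746 to 0.75 with water (median 0.195). The groups overlapped, and the 0.75 of AsiSI water at 13 days stood above the 0.231 of the next water sample. It was also above all levels in the other 80 samples, 69 of which held the site, at 0.0476 to 0.429. The difference was -0.059 ± 0.056 (SE) over 8 pairs (limma adjusted p = 0.712), and 0.000115 without the AsiSI pair of 13 days. The neighbouring site at chr19:3648325 was found in 5 doxycycline samples at 0.0213 to 0.143 and in 7 water samples at 0.0377 to 0.113.

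GNL3L, a nucleolar GTPase, was found in 15 samples, with 0.07 to 0.6 with doxycycline (median 0.139) and 0.08 to 0.364 with water (median 0.131). The 0.6 of AsiSI doxycycline at 4 days stood apart, as the next doxycycline sample had 0.265. Its paired difference was -0.031 ± 0.039 (SE, 7 pairs, limma adjusted p = 0.712). IQCB1, a ciliary protein, was also found in 15 samples, at 0.25 to 0.857 with doxycycline (median 0.608) and 0.4 to 0.829 with water (median 0.553). Its paired difference was -0.050 ± 0.060 (SE, 7 pairs). The levels of both treatments overlapped at both genes.

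AJUBA at chr14:22972267 had the largest mean difference among the 12 tested sites. Its level was 0.6 with doxycycline and 0.364 with water in LINE, 0.29 and 0.556 in CSB, 0.444 and 0.919 in LIG3, and 0.5 and 0.668 in MRE11A at 5 days. It was thus lower with doxycycline in 3 of 4 pairs, with a difference of -0.168 ± 0.107 (SE, limma adjusted p = 0.712). Without the LINE pair the difference was -0.303 over 3 pairs with a limma adjusted p = 0.0205, the only call under any alternative, in a range of adjusted p from 0.0205 to 0.996. SSR4, a subunit of the translocon-associated protein complex of the endoplasmic reticulum, was found in 10 samples at a median of 0.833. Its median in 72 of the other samples was 0.418, where samples without a level enter neither median. Its paired levels were lower with doxycycline in 3 of 3 pairs, by -0.112 ± 0.070 (SE, limma adjusted p = 0.712).

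Several recurrent sites had low levels outside AsiSI. FAM20B, a kinase of proteoglycan synthesis, was found in 11 samples, at 0.02 to 0.0993 with doxycycline and 0.03 to 0.219 with water, the highest being AsiSI water at 13 days. SEC61A1, the channel subunit of the protein translocon, had 0.02 to 0.04 in 5 samples of other lines and 0.08 to 0.142 in 3 AsiSI samples. PPIA, the prolyl isomerase cyclophilin A, had 0.02 to 0.08 in 4 samples of other lines, and in AsiSI it had 0.15 with doxycycline and 0.179 with water at 4 days and 0.23 and 0.423 at 13 days. Its paired difference was -0.077 ± 0.072 (SE, 3 pairs, limma adjusted p = 0.712). CD2AP, an adaptor between membrane receptors and actin, had 0.06 to 0.219 with doxycycline and 0.1 to 0.19 with water, and no AsiSI sample held it. KPNB1, the nuclear import receptor importin beta, had 0.176 to 0.6 with doxycycline and 0.25 to 0.857 with water.

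Only 3 of the 12 tested sites were higher with doxycycline. The long non-coding RNA LINC-PINT differed by 0.095 ± 0.126 (SE, 3 pairs) at chr7:130944865 and by 0.0091 ± 0.072 (SE, 3 pairs) at chr7:130945478. ZNF514, a zinc finger gene, differed by 0.015 ± 0.098 (SE, 3 pairs) at chr2:95145860. All 3 had limma adjusted p between 0.712 and 0.904.

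**Figure D4:**
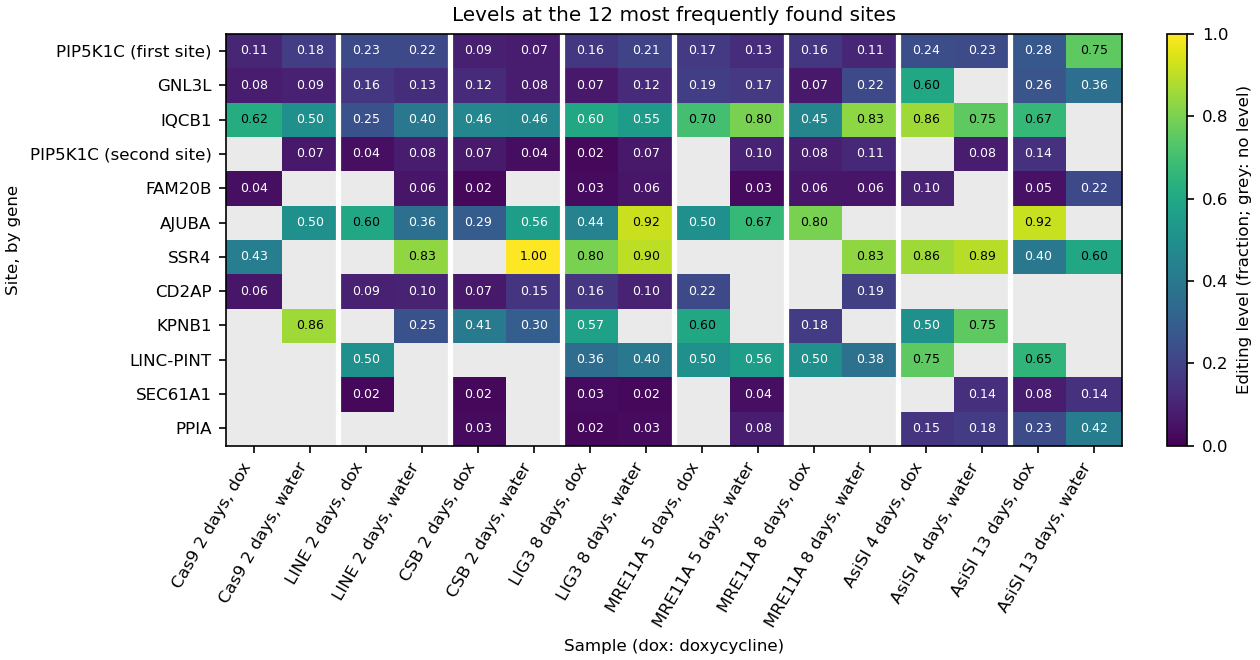
Editing level (fraction, colour and number) at the 12 sites found in most of the 16 samples, by gene, with the 2 samples of each pair side by side and grey where no level was given. The level of PIP5K1C at chr19:3648327 (first site) is 0.75 in AsiSI water at 13 days and 0.0746 to 0.276 in the other 15 samples.

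Within lines, the largest rise and fall were taken among sites found in every sample of the line, on both days for MRE11A and AsiSI. MTCH1, a mitochondrial outer membrane protein, had the largest rise in both Cas9 (0.571 with water, 0.875 with doxycycline) and CSB (0.6 and 0.857), at an intronic site at chr6:36973875. KPNA1, an importin alpha, had the largest fall in both Cas9 (0.545 with water, 0.364 with doxycycline) and LINE (0.5 and 0.3), at chr3:122459554. In LINE the largest rise was at an intronic site of CSTF1, a factor of mRNA 3′ end cleavage, from 0.125 with water to 0.5. In LIG3 it was at an intronic site of MMS22L, which acts in replication fork repair, from 0.3 to 0.75. AJUBA at chr14:22972267 had the largest fall in CSB and in LIG3. In MRE11A the largest mean fall over both days was at IQCB1, from 0.8 with water to 0.7 with doxycycline at 5 days and from 0.829 to 0.455 at 8 days. In AsiSI the largest mean fall over both days was at PIP5K1C at chr19:3648327, from 0.75 to 0.276 at 13 days, while the level at 4 days was 0.231 with water and 0.241 with doxycycline. The same PIP5K1C site had the largest mean rise in MRE11A, from 0.130 with water to 0.17 at 5 days and from 0.106 to 0.158 at 8 days. In AsiSI the largest mean rise was at SON, from 0.07 to 0.08 at 4 days and from 0.08 to 0.1 at 13 days. These sites were picked for their size, so they carry no test.

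The genes targeted in the lines were hardly represented. Of 13 listed sites in MRE11, 1 was found, at 0.5 in AsiSI doxycycline at 4 days and in no MRE11A sample. Of 6 in ERCC6, 1 was found, at 0.778 in CSB doxycycline and 0.5 in LINE water. No listed site lay in LIG3. Over the list of break repair genes, 4 of 35 sites were found (11.4%, against 14.7% of all listed sites), the other 2 in introns of BRCA1, and no site was found in both samples of a pair. Of 10 sites in genes of double-stranded RNA sensing and editing, 4 were found (40%), all in the 3′ UTR of EIF2AK2, which encodes the RNA-activated kinase PKR. The site at chr2:37100891 was found in 5 samples at 0.5 to 0.625, against a median of 0.242 in 69 of the other samples.

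Of 57 sites in genes of mitochondrial translation, 9 were found (15.8%), in LRPPRC, MRPL3, MRPL23, MRPS9 and MRPS22. They gave 10 observations with doxycycline and 15 with water, of 529 and 558 over all sites. MRPS22, a protein of the small mitochondrial ribosomal subunit, was found at chr3:139353660 in 3 doxycycline samples at 0.29 to 0.583 and in 4 water samples at 0.158 to 0.6. In the pairs with both levels MRPS22 had 0.29 with doxycycline and 0.3 with water in LIG3 and 0.293 and 0.25 in MRE11A at 5 days. The other paired differences were in Cas9, 0.067 at LRPPRC and 0.3 at MRPL3. Over the 4 paired observations of this list the median difference was 0.055, against -0.015 over all 133. None of the 4 came from AsiSI at 13 days, which gave 30 of the 133, so the medians rest on different pairs and are not directly comparable. Zinc finger genes had 18 of 116 sites found (15.5%), 13 of them in ZNF514, with 18 observations with doxycycline and 25 with water. The median difference was -0.027 over 8 paired observations. All 8 were at ZNF514, so this value is that of 1 gene and not of the list.

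Of 22 listed sites in genes known as recoding targets, introns and UTRs included, 9 were found (40.9%). The median difference was -0.04 over 4 paired observations, all of them in AsiSI. In all, 6 sites listed as coding were found. The 3 below were found in more than 1 sample and are shown for that reason.
SON coding exon, chr21:33551013 on the plus strand: ctggggcactAgagttgcctg
COG3 coding exon, chr13:45516236 on the plus strand: cattaaggaaAtttccctgga
BLCAP coding exon, chr20:37519170 on the minus strand: gagatcatgtAttgcctccag
SON, a splicing cofactor, was found in all 4 AsiSI samples and in none of the 12 others. Its level was 0.08 with doxycycline and 0.07 with water at 4 days and 0.1 and 0.08 at 13 days, against a median of 0.03 in 67 of the 80 other samples. COG3, a subunit of the Golgi tethering complex, had 0.13 in AsiSI doxycycline and 0.219 in AsiSI water at 4 days and 0.186 in AsiSI doxycycline at 13 days. It was also found in water samples of LIG3 (0.06) and MRE11A (0.11 at 5 days, 0.178 at 8 days). BLCAP, a small protein of unclear function, had 0.375 with doxycycline and 0.5 with water in AsiSI at 4 days. The remaining coding sites, a further one in BLCAP and ones in DACT3 and KPNA1, were each found in 1 sample.

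The genomic elements of the sites found showed no difference that passed the test. Introns held 56.6% ± 5.63 (SD, n = 8) of the sites with doxycycline and 54.7% ± 12.8 with water, and 3′ UTRs 22.7% ± 3.05 and 20.3% ± 6.81. The shares in 5′ UTRs were 7.42% ± 3.21 and 8.48% ± 5.35, and in vlincRNAs, very long intergenic non-coding RNAs, 4.82% ± 4.68 and 4.97% ± 4.72. None of 8 elements passed (0%) in the exact paired permutation test with Benjamini-Hochberg adjustment, and none had an unadjusted p under 0.05. The smallest adjusted p was 0.775, and in the 6 pairs alone it was 0.75. The difference in 3′ UTR share was 2.46 ± 6.79 percentage points (SD, 8 pairs), higher with doxycycline in 5 pairs.

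Sequence context and the listed properties of sites did not pass either (0% of 5 properties, none with an unadjusted p under 0.05). T before the edited base was present in 54.7% ± 3.86 of the sites with doxycycline and 49.5% ± 7.39 with water. This share was higher with doxycycline in 7 of 8 pairs, a difference of 5.19 ± 9.55 points (exact paired permutation p = 0.148, adjusted 0.645). G after the edited base was present in 54.8% ± 6.08 and 51.8% ± 7.28 (exact permutation p = 0.391, adjusted 0.645), and in the 6 pairs the difference was 6.59 ± 6.58 points (exact permutation p = 0.0625, adjusted 0.313). Annotated sites made up 86.9% ± 4.97 and 85.2% ± 6.95, sites called by all 3 tools 57.3% ± 11.1 and 56.2% ± 14.8, and sites within 100 bases of another listed site 73.7% ± 11 and 71.6% ± 16.6. The list counts every tool that called a site in any sample. Being called by all 3 tools is thus a property of the site, not of its support in the sample at hand.

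The same shares set the AsiSI samples apart from the other lines under both treatments. Annotated sites were 74.3% to 82.8% of the sites in the 4 AsiSI samples and 84.5% to 97.2% in the 12 others. Sites that all 3 tools called somewhere in the full set of samples were 26.7% to 46.5% and 51.4% to 73.3%. Sites within 100 bases of another were 38.61% to 61.2% and 70.5% to 90.5%. The lowest value of each share was that of AsiSI water at 13 days, where 39 of 101 sites had a listed neighbour (95% Wilson interval 29.7% to 48.4%). These 3 of the 13 shares had ranges that did not overlap (23.1%), whereas all 8 genomic elements overlapped. In AsiSI 190 of 264 sites were found in no other line, against 72 of 160 in LIG3 and 60 of 150 in MRE11A. The 4 AsiSI libraries are of 1 line and carry identifiers of their own kind in the sample table, so the line and the library set cannot be told apart.

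**Figure D5:**
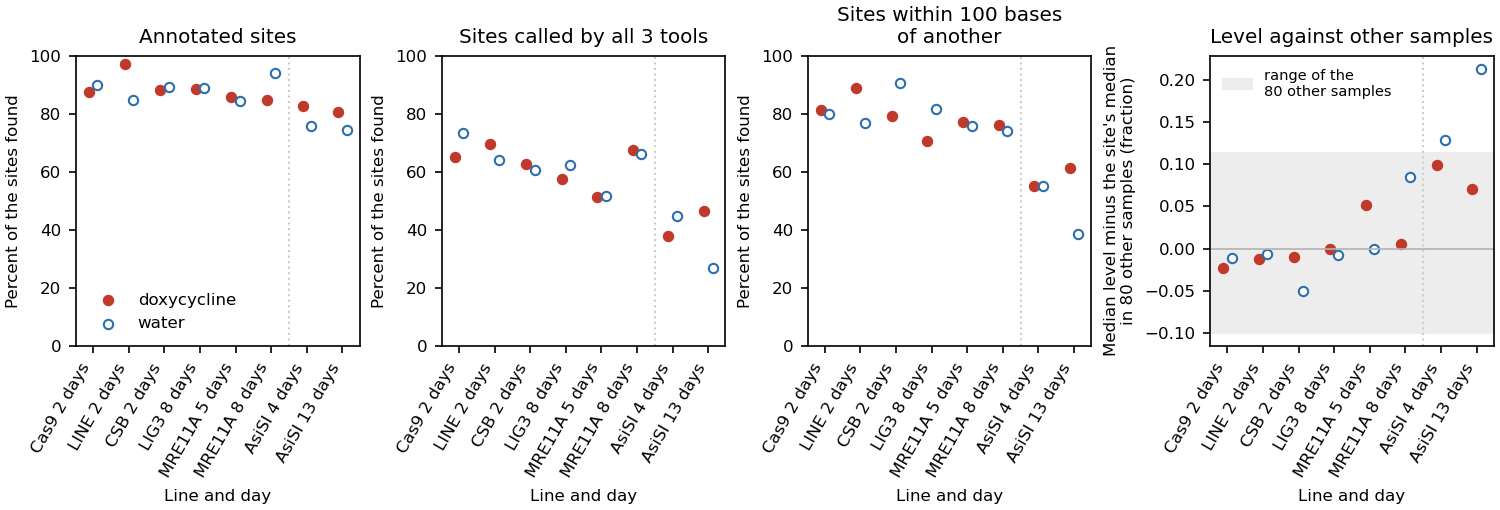
Percent of the sites found in each sample that are annotated, called by all 3 tools (in any samples) or within 100 bases of another listed site, and (right) the median deviation of its levels from the medians of the 80 other samples, with their range as a grey band. Doxycycline is filled red and water open blue, and the AsiSI samples, right of the dotted line, lie below the 12 others in the 3 shares.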

How the data were processed

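Total RNA of K562 derivative lines was depleted of rRNA and sequenced as strand-specific paired-end libraries. The deposited values are editing levels, each the fraction of reads with G at a site, which the authors averaged over those of REDItools, RED-ML and SPRINT that called the site. Per the methods and the submitters' processing notes, reads were trimmed (fastx toolkit 0.0.13), aligned to GRCh38 (TopHat2 2.1.1) and processed with Picard 2.0.1 and SAMtools 1.9. Known variants (dbSNP 151), repeats and regions of low mappability were removed, and sites were kept when called in at least 2 samples with a highest level above 0.2. The paper then dropped sites called by REDItools alone. It kept unannotated sites by place and tool, with RED-ML in introns and vlincRNAs and SPRINT also required elsewhere. Shares by element, annotation and tool therefore also depend on this selection, which the paper calls biased by genomic region for unannotated sites. The filters ran over 130 samples, so a site's presence in the list depends on samples outside the pairs. The list holds 4149 sites, 57 of them without levels. Of its columns 96 were used and 34 were not used here.

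A level of 0 was read as no level recorded. Samples were grouped by the labels' genotype, treatment and day, and paired by line and day, which mark shared cells. Each pair was compared by an exact two-sided permutation of signs, with 95% intervals by inversion of that test. Levels at single sites were tested with limma 3.58.1 (R 4.3.3) with the pair as block, and adjusted by Benjamini-Hochberg over the 12 sites found in both samples of at least 3 pairs. Python 3.11.15 and scipy 1.17.1 were used elsewhere. Read totals, 18 to 42.1 M (M, 1000000) per sample, came from the sample table that accompanies the data. The coverage of single sites is unknown, so levels carry no counting interval, and Wilson intervals of shares cover counting error only. Genes and bases were taken from GENCODE release 44 and GRCh38, and all 4092 sites with levels had A on the listed strand.

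Sites were named when they were among the 12 found in most samples, among the 4 with the smallest limma p in each direction, limited to 1 treatment in at least 4 pairs, in a targeted gene, the largest rise or fall of a line, or listed as coding. Ties among the 12 went to the site held by more of the 80 other samples, which left out a LINC-PINT site. Sites in the gene lists, those limited to 1 treatment in 3 pairs and those of AsiSI only were named after their values were seen. Members, lists and tests were chosen with earlier results of these data known. The comparison of levels with the 80 other samples was added after the data were seen. Alternatives changed the level at which a site counts as found, the sites kept, the scale, the pairing and the pairs included. Both test scripts were checked on simulated data with known differences. One site limited to water is not reported here.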

Additional observations from a re-analysis of the deposited data

Results flagged for a closer look

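In 62 groups of 4 to 8 samples of 1 treatment, 8 held a sample whose gap to its nearest neighbour, divided by the group's range, was above Dixon's 95% value. Chance gives this in about 1 of 20 groups. At single sites the 4 samples were all of the AsiSI line. PIP5K1C at chr19:3648327 had a level of 0.75 in AsiSI water at 13 days, in a group that ran from 0.0746 to 0.75, and FAM20B had 0.219 in the same library. GNL3L had 0.6 in AsiSI doxycycline at 4 days, and SEC61A1 had 0.08 in AsiSI doxycycline at 13 days, where the 3 other doxycycline samples had 0.02 to 0.03.

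Among shares of sites, 20.3% of the sites of CSB water lay in 5′ UTRs (15 of 74, Wilson interval 12.7% to 30.8%), the highest of 8 water samples. Coding exons held 5.17% of the sites of AsiSI doxycycline at 4 days (3 of 58, 1.77% to 14.1%). In LINE doxycycline 11.1% of the sites lay in exons of long non-coding RNAs (4 of 36, 4.41% to 25.3%), and 97.2% were annotated (35 of 36, 85.8% to 99.5%). Each of these shares rests on few sites.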

How the results depend on the processing

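No exact permutation test of doxycycline against water passed 0.05 under any alternative, where the p of shares of elements and properties is the adjusted one. For those shares this does not hold for unadjusted p. The lowest adjusted exact permutation p among them was 0.078, for T before the edited base. With 1 pair left out, the difference in that share ran from 2.64 to 7.36 points. Limma called 1 site, AJUBA at 22972267, without LINE. With 5 pairs or fewer the exact paired permutation test cannot go below p = 0.0625, so those alternatives could not have passed. Of the main comparisons under the alternatives, 17 values turned in direction, 216 stayed the same and 1, the number of limma calls, moved. Over the 6 pairs, sites found, sites per M reads and the level at shared sites never turned. Nor did the level against the other samples over the 8 pairs. Other directions were not stable, and all differences lay within the spread between pairs. With 1 pair left out, the difference in sites found over 8 pairs ran from -11.3 to 1.86, the log2 ratio per M reads from -0.17 to 0.024, the median level from -0.012 to 0.014 (6 pairs, -0.0026 to 0.031), the level at shared sites from -0.018 to 0.016 (AsiSI pairs, -0.169 to 0.0072), the level against the other samples over 6 pairs from -0.010 to 0.016, the sites found over 6 pairs from -21.4 to -3, and the number of limma calls from 0 to 1. The median level turned to -0.0057 (6 pairs, -0.0076) for sites of at least 0.2, and to -0.025 (6 pairs, -0.033) with 1 site per cluster. The level at shared sites turned to 0.0053 for levels of at least 0.1 and to 0.0036 with the days averaged. Without pairs that hold a library under 25 M reads, the difference in sites found over 6 pairs was -26.7 (3 pairs). The AsiSI pairs had differences of 0 in sites found and in median level without 13 days, and of 0 in median level for sites of at least 0.2.

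With 1 site per cluster the differences in share turned to 0.12 (5′ UTR), 0.073 (vlincRNA) and -1.28 (lncRNA intron) percentage points. Leaving out 1 pair gave ranges of -0.22 to 0.90 (lncRNA intron), -1.33 to 0.93 (vlincRNA), -1.35 to 4.03 (intron), -1.66 to 2.36 (all 3 tools) and -0.86 to 4.01 (clustered). The reversed values were -0.028 and -0.22 for lncRNA intron (without Cas9, AsiSI 13 days), 0.93, 0.83 and 0.17 for vlincRNA (without LINE, LIG3, MRE11A 5 days) and -0.36 and -1.35 for intron (without MRE11A 5 and 8 days). At single sites IQCB1 ranged from -0.078 to 0.0038 (without MRE11A 8 days) and PIP5K1C at 3648327 from -0.075 to 0.000115 (without AsiSI 13 days). The cause was not tested.

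Without the replicate block, that is with pairing ignored, the difference in sites found stayed -3.63 (exact permutation p = 0.811) and limma called 0 sites. GNL3L at 54563297 turned to 0.027 and AJUBA at 22972267 moved to -0.0095. The block changed no call. Pairing came from the line and day in the labels. With 1 library per cell of the design and 30 to 129 sites per library, intervals of the mean difference reach several hundredths of a level, and smaller differences were not detectable.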

Other observations

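Several genes held many of the sites found. ZNF514 had 13 of its 21 listed sites found, mostly in the 3′ UTR, with 16 observations with doxycycline and 22 with water, and SMU1 had 13 of 29, with 13 and 7. NAA20, a subunit of an N-terminal acetyltransferase, had 11 of 12 sites found, with 4 observations with doxycycline and 11 with water. With 8 sites each, NUP98, a nucleoporin, had 5 observations with doxycycline and 11 with water, MTCH1 had 8 and 6, and TEP1, a telomerase-associated protein, had 8 and 3. With 7 sites each, the long non-coding RNA LINC00624 had 5 and 9, and CSTF1 had 3 and 6. The direction thus differed between genes. These genes were chosen for their number of sites, and neighbouring sites of a gene share their transcript, so the counts carry no test.

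Of the 602 sites found, 22 were found in none of the other 80 samples, and 10 were found in all 6 lines. In AsiSI, 7 sites were found in all 4 samples, and 3 of them in no other line, namely SON and sites in the 3′ UTRs of CARD8, an inflammasome protein, and MCRIP1. CARD8 had 0.0826 with doxycycline and 0.1 with water at 4 days and 0.309 and 0.556 at 13 days, with a median of 0.0899 in 43 of the other samples. MCRIP1 had 0.08 and 0.15 at 4 days and 0.21 and 0.245 at 13 days, with a median of 0.06 in 30 of them.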
